A study of Mus musculus with 5 samples.

Results

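The interferon response genes described here are a list of 38 genes of the type I and type II interferon pathways. They were chosen by name, with earlier results of these data known. Of these, 36 had a probe set of their own in the table, 59 probe sets in all, out of 18193 genes and 34945 probe sets with 1 gene symbol. Ifi44 had none, and Isg15 lay only on a probe set shared with a second symbol, so neither is given a value. Of the measured genes, 16 act upstream, as transcription factors, receptors, sensors and their regulators, and 20 are effectors.

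Expression was measured on single-channel Affymetrix arrays in prostate tumour cells isolated from dissociated C57BL/6 mouse tumours with EpCAM beads, 1 mouse per array. The 2 nTKO mice, 31.43 and 16 weeks old, carry floxed Pygo2 in addition to the floxed alleles, Smad4 among them, that they share with the 3 nDKO mice, which were 15.86, 10.71 and 10.71 weeks old. In both genotypes the driver is Probasin, a promoter active in prostate epithelium, so the deletion is directed at prostate epithelial cells. Pygo2 encodes a PHD-finger co-activator of Wnt signalling, and its signal was 7.30 and 6.35 in nTKO cells, against 8.65, 8.62 and 8.72 in nDKO cells. Smad4, a mediator of TGF-beta signalling, measured 9.76 and 10.37 in nTKO cells, against 9.63, 9.88 and 9.88 in nDKO cells, and whether its probe set lies in the deleted part is not given in the sources used here. All signals are on the authors' log2 scale, where array medians lay between 4.94 and 4.98 and 1 unit is a 2-fold change.

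Interferons are secreted when cells sense foreign or misplaced nucleic acid, or, for interferon gamma, by activated lymphocytes. Type I interferon binds Ifnar1 and Ifnar2 and activates a complex that includes Stat2 and Irf9, which binds the interferon-stimulated response element. Interferon gamma binds Ifngr1 and Ifngr2 and acts through gamma-activated sites and Irf1. In epithelial tumours the response can be driven by the tumour cell's own nucleic acid sensors or by interferon from infiltrating cells.

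The response element can be read in the sequence of the genes themselves. RefSeq promoter sequences of GRCm38.p6 were at hand for 30 of the 38 genes, each from 250 bases before the annotated start of the gene to 50 after it. The letters GAAANNGAA on either strand, from the core of the response element, were present for 16 of the 30 genes, against 9.76% of 27025 genes with such a sequence. The letters TTCNNNGAA, the core of a gamma-activated site, were present for 11 of 30, against 9.55%. Among the effectors with such a sequence, 8 were at least 2-fold lower in 1 mouse of the series, as described further on. The 5 of them that held a GAAANNGAA match are shown, and Ifit2 is shown for the 3 that held none (Ifit2, Oasl1 and Xaf1), beside a receptor gene without a match. Below are the 160 bases before the start, 5′ to 3′ on the strand of the gene, with each match to GAAANNGAA, on either strand, in capitals.
Ifit3, chr19:34583369-34583528, plus strand: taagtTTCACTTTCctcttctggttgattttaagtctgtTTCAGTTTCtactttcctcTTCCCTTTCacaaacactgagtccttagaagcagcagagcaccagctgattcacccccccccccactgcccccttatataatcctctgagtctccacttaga
Ifit1, chr19:34640729-34640888, plus strand: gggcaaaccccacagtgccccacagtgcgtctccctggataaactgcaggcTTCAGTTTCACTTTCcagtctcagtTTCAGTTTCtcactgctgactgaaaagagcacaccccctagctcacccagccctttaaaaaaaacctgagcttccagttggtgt
Rsad2, chr12:26456453-26456612, minus strand: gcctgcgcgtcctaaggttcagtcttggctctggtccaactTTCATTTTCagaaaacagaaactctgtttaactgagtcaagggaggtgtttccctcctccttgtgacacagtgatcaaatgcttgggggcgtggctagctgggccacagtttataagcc
Igtp, chr11:58199396-58199555, plus strand: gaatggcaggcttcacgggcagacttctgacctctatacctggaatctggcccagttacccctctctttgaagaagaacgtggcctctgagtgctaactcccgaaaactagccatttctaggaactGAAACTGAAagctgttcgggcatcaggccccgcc
Gbp3, chr3:142559884-142560043, plus strand: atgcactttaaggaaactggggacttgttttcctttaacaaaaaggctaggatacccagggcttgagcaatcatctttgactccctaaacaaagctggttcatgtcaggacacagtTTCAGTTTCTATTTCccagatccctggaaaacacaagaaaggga
Ifit2, chr19:34550534-34550693, plus strand: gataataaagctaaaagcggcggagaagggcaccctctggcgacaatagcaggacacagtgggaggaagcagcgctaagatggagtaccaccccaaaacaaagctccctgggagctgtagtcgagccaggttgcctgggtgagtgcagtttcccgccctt
Ifngr1, chr10:19591789-19591948, plus strand: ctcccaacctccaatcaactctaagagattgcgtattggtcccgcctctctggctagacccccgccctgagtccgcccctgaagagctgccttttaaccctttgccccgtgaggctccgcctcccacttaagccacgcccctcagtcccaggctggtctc
The matches began 155, 121 and 102 bases before the start in Ifit3, 109, 103 and 84 in Ifit1, 119 in Rsad2 and 34 in Igtp. In Gbp3, at the first of its starts with a sequence, a pair of overlapping matches began at 44 and 38. Ifit2, drawn at the first of its starts with a sequence, held no GAAANNGAA match in the 300 bases searched at any of them, and Ifngr1 held neither motif. A match describes letters in this window only.

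Interferon response genes did not separate the genotypes. None of the 36 genes had values in both nTKO mice that lay outside the range of the 3 nDKO mice, where 12.8% of all genes did. In the limma fit over all genes, 0 of 36 had an adjusted p under 0.05 (smallest limma adjusted p = 0.853) and 0 had an unadjusted p under 0.05, against 0% and 3.79% of all genes. The mean was higher in nTKO cells for 26 of the 36 genes and lower for 10, beside 61% higher among all genes, and the count was 21 of 36 after each array was centred on its median. The median log2 fold change, nTKO minus nDKO, was 0.098 over the 36 genes and 0.028 over all genes. It was 0.0083 over the 16 sensors and regulators and 0.155 over the 20 effectors.

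A larger contrast lay within the nDKO genotype. Of the 36 genes, 33 had their lowest value of the 5 arrays in nDKO 1, the older nDKO mouse, against 30.6% of all genes. Isg20 and Ifitm3 were lowest in nTKO 2 and Ifnar1 in nDKO 2. Relative to the mean of the 2 younger nDKO mice, 26 of 36 genes were at least 1.5-fold lower in nDKO 1 and 0 were as much higher, beside 3.67% lower and 4.09% higher among all genes, and 15 of 36 were at least 2-fold lower, beside 1.21%. The median difference was -0.92 log2 units over the 36 genes and -0.01 over all genes. This is 1 mouse against 2, so it carries no test, and age, mouse and array cannot be told apart.

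**Figure D1:**
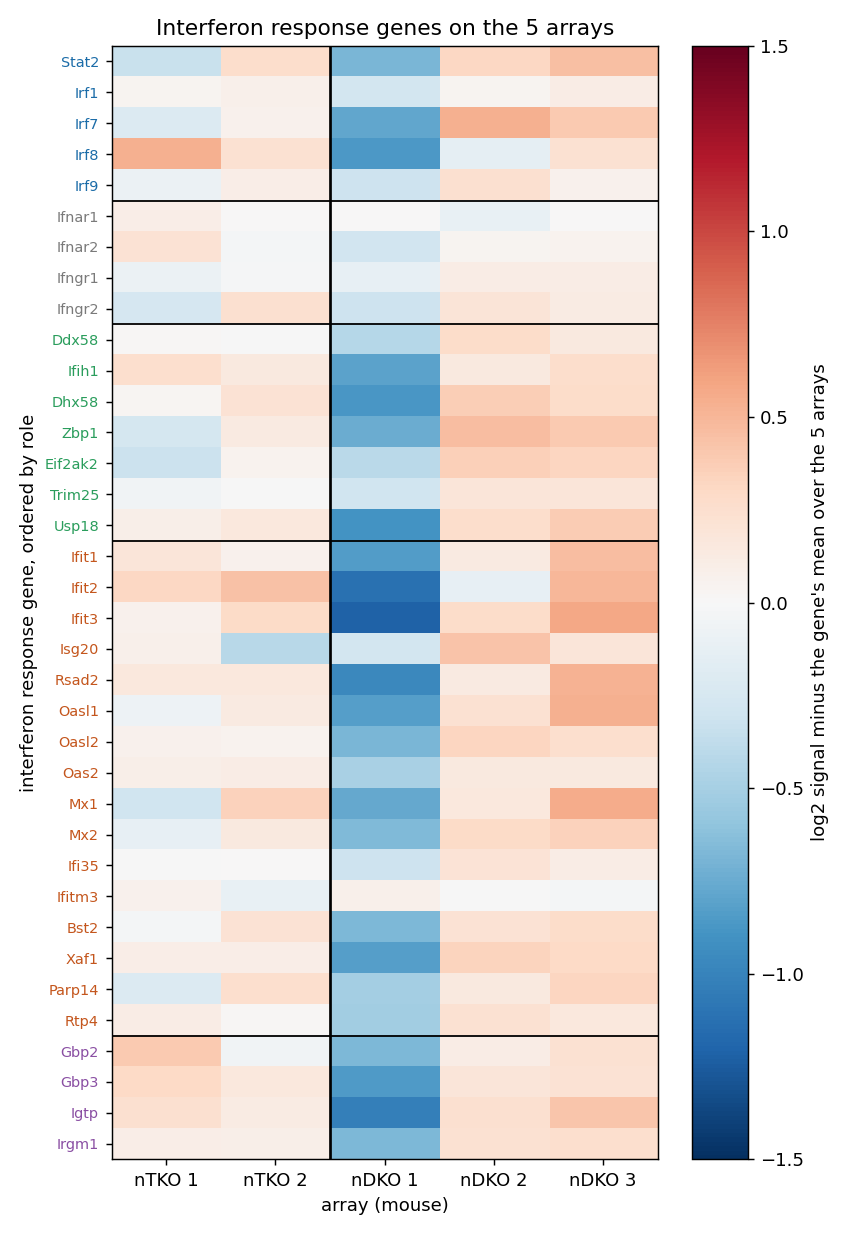
Log2 signal of each of the 36 interferon response genes on the 5 arrays, minus the mean of that gene over the arrays (blue, below the mean; red, above it). Rows are grouped by role, with lines between transcription factors, receptors, sensors and their regulators, antiviral effectors and interferon-induced GTPases, and the vertical line separates nTKO from nDKO mice. The column of nDKO 1 is the lowest for 33 of the 36 genes.

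nDKO 1 and nTKO 1 are also the arrays that carry a squamous, keratinising signature. The 8 squamous markers had medians of 9.15 and 5.22 in nTKO 1 and nTKO 2, against 9.98, 5.54 and 5.60 in the nDKO mice. Krt10, a keratin of differentiating squamous cells, measured 13.04 in nTKO 1 and 13.03 in nDKO 1. The markers were not uniform. Lor measured 5.06 in both nTKO mice, against 5.49, 5.06 and 5.07 in the nDKO mice. Sprr3 measured 4.98 and 4.77 in the nTKO mice, against 7.03, 4.95 and 4.96 in the nDKO mice. Between the nTKO mice, the older with the squamous signature and the younger without it, the median difference of the interferon response genes was -0.035, with 2 of 36 at least 1.5-fold lower in nTKO 1 and 0 as much higher, beside 2.45% and 4.27% of all genes. The difference between the 2 younger nDKO mice had a median of -0.025 and a range of -0.62 to 0.24. The part of the squamous signature in the interferon values was not tested.

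**Figure D2:**
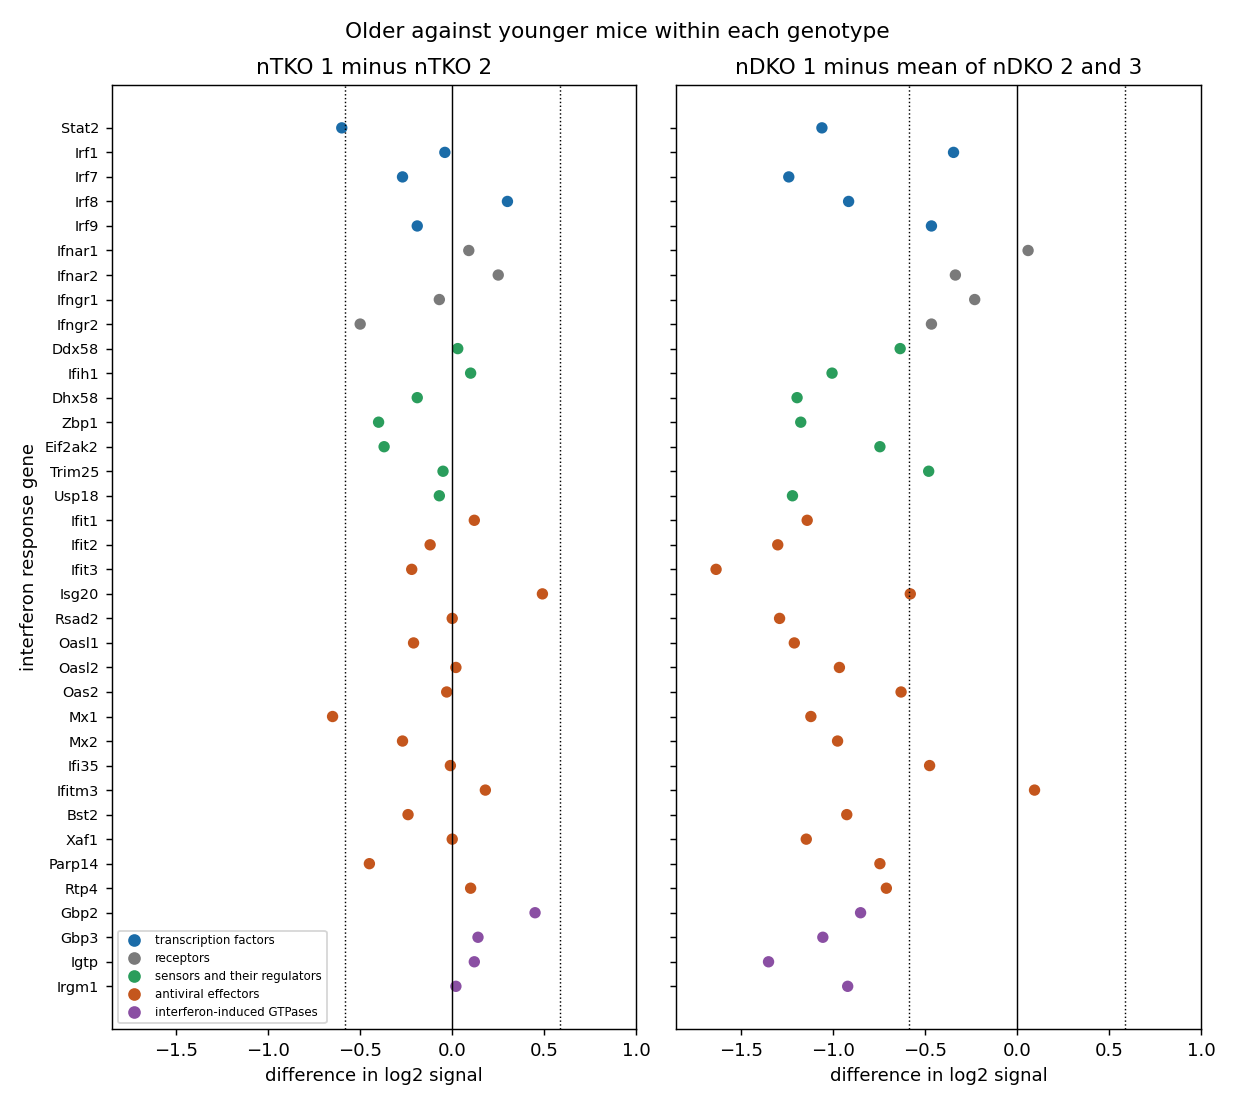
Difference in log2 signal between older and younger mice of the same genotype for each interferon response gene, nTKO on the left (nTKO 1 minus nTKO 2) and nDKO on the right (nDKO 1 minus the mean of nDKO 2 and 3). Colours give the role, and dotted lines mark a 1.5-fold difference. The nTKO values lie between -0.65 and 0.49, and the nDKO values reach -1.64 for Ifit3.

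Among the transcription factors, Irf7, which amplifies type I interferon production, measured 10.79 and 11.06 in nTKO cells, against 10.21, 11.52 and 11.38 in nDKO cells. Stat2, the subunit through which the type I complex activates transcription, measured 8.18 and 8.78 in nTKO cells, against 7.83, 8.82 and 8.96 in nDKO cells. Both nTKO values of each gene fell inside the nDKO range, and nDKO 1 alone was 42.3% (Irf7) and 48.0% (Stat2) of the younger nDKO mice. Irf9, the DNA-binding partner of Stat2, measured 9.82 and 10.01 in nTKO cells, against 9.60, 10.15 and 9.98 in nDKO cells. Irf1, a target and mediator of interferon gamma, measured 10.12 and 10.16 in nTKO cells, against 9.81, 10.12 and 10.19 in nDKO cells. For these genes the genotype differences were 0.005 (Irf9), 0.10 (Irf1), -0.11 (Irf7) and -0.057 (Stat2) log2 units, each smaller than its SE of 0.136 to 0.46.

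Irf8, a factor of myeloid cells that is also induced by interferon gamma, had the largest genotype difference of the list in the gene-level fit. It measured 6.57 and 6.27 in nTKO cells, against 5.17, 5.90 and 6.27 in nDKO cells, a log2 fold change of 0.64 (SE 0.37, limma adjusted p = 0.853, unadjusted p = 0.152). nTKO 2 and nDKO 3 had the same value, so the groups touch, and the difference was 0.34 without nDKO 1. Markers of macrophages were present beside it. The 9 macrophage markers had medians of 7.55 and 7.27 in nTKO cells, against 7.90, 7.53 and 8.27 in nDKO cells, and 7 of them had a lower mean in nTKO cells. On bulk arrays, fewer cells of a type and less RNA per cell cannot be told apart.

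The receptor genes varied little. Ifngr2 measured 9.93 and 10.43 in nTKO cells, against 9.88, 10.38 and 10.31 in nDKO cells, and Ifngr1 measured 9.31 and 9.38 in nTKO cells, against 9.28, 9.51 and 9.51 in nDKO cells. Ifnar2 measured 8.82 and 8.57 in nTKO cells, against 8.32, 8.65 and 8.66 in nDKO cells, and Ifnar1 measured 6.58 and 6.49 in nTKO cells, against 6.49, 6.37 and 6.49 in nDKO cells. The receptors spanned 0.21 to 0.55 log2 units over the 5 arrays, and 0 of 4 were 1.5-fold lower in nDKO 1. Their median difference between nDKO 1 and the younger nDKO mice was -0.28, against -0.97 over the other 32 genes, a description with no test.

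The cytosolic sensors followed the pattern of low values in nDKO 1. Ifih1, which encodes the sensor of long double-stranded RNA, measured 10.75 and 10.65 in nTKO cells, against 9.70, 10.65 and 10.76 in nDKO cells. Ddx58, which encodes RIG-I, the sensor of RNA with a 5′ triphosphate, measured 9.82 and 9.79 in nTKO cells, against 9.37, 10.07 and 9.94 in nDKO cells. Ifih1 in nTKO cells matched the younger nDKO mice, at 0.33 (SE 0.37) over all mice and -0.005 without nDKO 1, and Ddx58 lay between nDKO 1 and the other nDKO mice, at 0.012 (SE 0.24). Dhx58, a regulator of both sensors, measured 9.12 and 9.31 in nTKO cells, against 8.22, 9.46 and 9.37 in nDKO cells. Zbp1, a sensor of left-handed nucleic acid that can trigger necroptosis, measured 8.59 and 8.99 in nTKO cells, against 8.11, 9.32 and 9.25 in nDKO cells. Both had all nTKO values above nDKO 1 and below the younger nDKO mice.

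Eif2ak2, which encodes the kinase PKR that stops translation on binding double-stranded RNA, measured 8.26 and 8.63 in nTKO cells, against 8.17, 8.93 and 8.90 in nDKO cells. Its log2 fold change was -0.22 (SE 0.30) and lay between -0.29 and -0.22 over its 3 probe sets, all in the same direction. Usp18, the protease that removes ISG15 from proteins and dampens type I receptor signalling, measured 11.34 and 11.41 in nTKO cells, against 10.36, 11.52 and 11.64 in nDKO cells. Trim25, a ubiquitin ligase that activates RIG-I, measured 11.10 and 11.15 in nTKO cells, against 10.86, 11.34 and 11.34 in nDKO cells. For all 3 genes the nTKO values again lay above nDKO 1 and below the other nDKO mice.

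By the brightest probe set of each gene, Ifit3 and Ifit2 had the widest ranges over the 5 arrays, at 1.79 and 1.61 log2 units, while a dimmer probe set of Dhx58 spanned 1.85. Ifit3, which with Ifit1 and Ifit2 forms a family that binds foreign RNA and blocks its translation, measured 11.32 and 11.54 in nTKO cells, against 10.04, 11.52 and 11.83 in nDKO cells. Ifit2 measured 9.0 and 9.12 in nTKO cells, against 7.57, 8.56 and 9.18 in nDKO cells, and Ifit1 measured 10.91 and 10.79 in nTKO cells, against 9.89, 10.87 and 11.19 in nDKO cells. In nDKO 1 the signal was 32.2% (Ifit3), 40.6% (Ifit2) and 45.4% (Ifit1) of that in the younger nDKO mice. The log2 fold changes between genotypes were 0.30 (SE 0.61) for Ifit3, 0.62 (SE 0.51) for Ifit2 and 0.20 (SE 0.43) for Ifit1, and without nDKO 1 they were -0.25, 0.19 and -0.18.

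Rsad2, which encodes viperin, an enzyme that makes a chain-terminating nucleotide, measured 11.13 and 11.13 in nTKO cells, against 10.01, 11.11 and 11.49 in nDKO cells. Oasl2, an activator of ribonuclease L signalling in the mouse, measured 11.74 and 11.72 in nTKO cells, against 10.99, 11.99 and 11.92 in nDKO cells. Oasl1, which in the mouse restrains Irf7 translation, measured 9.0 and 9.21 in nTKO cells, against 8.25, 9.31 and 9.61 in nDKO cells. By its brightest probe set, Rsad2 in nTKO cells lay within the range of the younger nDKO mice, while Oasl2 and Oasl1 lay just below it. By its dimmer probe sets Rsad2 in nTKO cells also lay below the younger nDKO mice. These gave 9.11 and 9.36, against 9.47 and 9.93, and 9.09 and 9.22, against 9.23 and 9.82. Oas2, a synthase of 2′-5′ oligoadenylates, measured 10.47 and 10.50 in nTKO cells, against 9.90, 10.53 and 10.53 in nDKO cells.

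Mx1 and Mx2 encode dynamin-like GTPases that trap viral nucleocapsids. The Mx1 protein is non-functional in C57BL/6 mice, and whether Mx2 gives a working protein in them was not examined. Mx1 measured 8.21 and 8.86 in nTKO cells, against 7.75, 8.67 and 9.07 in nDKO cells, and Mx2 measured 7.07 and 7.34 in nTKO cells, against 6.53, 7.48 and 7.53 in nDKO cells. Mx1 and Stat2 were the 2 genes at least 1.5-fold lower in nTKO 1 than in nTKO 2. Xaf1, a pro-apoptotic antagonist of XIAP, measured 10.72 in both nTKO mice, against 9.80, 10.96 and 10.93 in nDKO cells. Bst2, the tetherin that holds budding virus at the surface, measured 10.22 and 10.46 in nTKO cells, against 9.57, 10.47 and 10.52 in nDKO cells.

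By the brightest probe set of each gene, Ifitm3, Isg20 and Ifi35 were the 3 antiviral effectors not at least 1.5-fold lower in nDKO 1. Ifitm3 was 0.095 log2 units higher there than in the younger nDKO mice. Isg20, at -0.58, and Ifi35, at -0.475, were lower. Ifitm3, a membrane protein that blocks virus entry, measured 13.27 and 13.09 in nTKO cells, against 13.28, 13.20 and 13.17 in nDKO cells, a range of 0.19 log2 units. Isg20, an exonuclease that degrades RNA, measured 10.69 and 10.20 in nTKO cells, against 10.34, 11.04 and 10.80 in nDKO cells. Its log2 fold change of -0.28 (SE 0.28) was the most negative of the list, and both nTKO values were below the younger nDKO mice. Ifi35, a cytosolic protein induced by both interferon types, measured 11.58 and 11.59 in nTKO cells, against 11.27, 11.79 and 11.70 in nDKO cells. By each of its dimmer probe sets, Ifi35 was 1.55-fold lower in nDKO 1 than in the younger nDKO mice. Parp14, an ADP-ribosyltransferase, measured 10.20 and 10.65 in nTKO cells, against 9.89, 10.55 and 10.72 in nDKO cells, and Rtp4, a membrane-associated protein, measured 12.00 and 11.90 in nTKO cells, against 11.37, 12.11 and 12.05 in nDKO cells.

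The interferon-induced GTPases of the Gbp and Irg families act in defence against intracellular pathogens and are strong targets of interferon gamma. The mean was higher in nTKO cells for 4 of 4 of these genes, beside 61% of all genes. Igtp measured 10.10 and 9.98 in nTKO cells, against 8.84, 10.10 and 10.28 in nDKO cells. Gbp3 measured 8.96 and 8.82 in nTKO cells, against 7.81, 8.85 and 8.88 in nDKO cells. Their log2 fold changes of 0.30 (SE 0.50) and 0.38 (SE 0.39) came from nDKO 1 and were -0.15 and 0.025 without it. Gbp2 measured 9.51 and 9.06 in nTKO cells, against 8.44, 9.23 and 9.35 in nDKO cells, and Irgm1 measured 9.92 and 9.90 in nTKO cells, against 9.14, 10.05 and 10.07 in nDKO cells. The GTPases differed by a median of -0.99 between nDKO 1 and the younger nDKO mice, beside -0.97 for the 16 antiviral effectors and -1.01 for the 7 sensors and their regulators.

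The sign of the genotype difference therefore depended on nDKO 1. Without this mouse the mean was lower in nTKO cells for 31 of 36 genes, and the median log2 fold change was -0.168, beside 0.02 for all genes. Both nTKO mice were then below both remaining nDKO mice for 19 of 36 genes, and 0 were above, beside 10.6% and 14.5% of all genes. The nTKO mice, at 31.43 and 16 weeks, were older than the remaining nDKO mice, at 10.71 weeks each. Genotype and age cannot be told apart in this setting. The unadjusted p was under 0.05 for 6 of 36, all lower (Irf7, Ifngr1, Trim25, Oasl2, Xaf1 and Irgm1), beside 2.07% of all genes lower, and 0 passed the adjusted threshold (smallest limma adjusted p = 0.763). Irf7 had the largest of these differences, at -0.53, and the others lay between -0.23 and -0.15. In the pair of like age, nTKO 2 at 16 weeks against nDKO 1 at 15.86 weeks, 33 of 36 genes were higher in nTKO 2 and 23 at least 1.5-fold, beside 4.82% of all genes. This is 1 array against 1, and its nDKO mouse is the array with the lowest value for 33 of the 36 genes. The pair also differs in the squamous signature, with Krt10 at 6.90 in nTKO 2 and 13.03 in nDKO 1. Genotype, mouse and squamous signature cannot be told apart in it. With log2 age as a covariate, 34 of 36 were higher in nTKO cells, with a median of 0.66, beside 0.0030 for all genes. In that fit 0 passed the adjusted threshold (smallest limma adjusted p = 0.371). With the age covariate and nDKO 1 left out, 11 of 36 were higher, with a median of -0.12, beside -0.023 for all genes. With nTKO 1 left out instead, 33 were higher, with a median of 0.81, beside 0.0011 for all genes. Both settings were chosen after seeing the data. For the counts by sign alone in these settings, the share of all genes is not given. Those counts are therefore not read as a result about these genes.

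**Figure D3:**
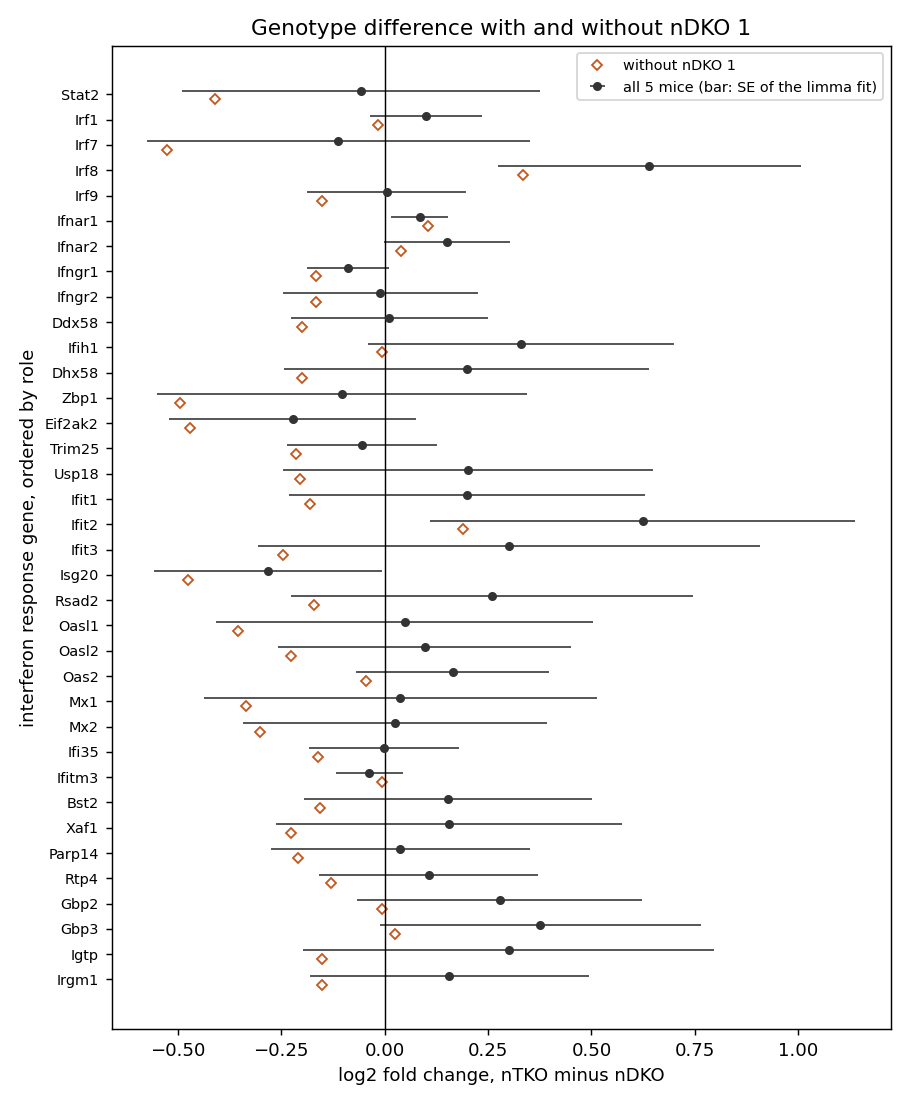
Log2 fold change of each interferon response gene between genotypes, nTKO minus nDKO, with all 5 mice (filled circles, with the SE of the limma fit as bars) and without nDKO 1 (open diamonds, no error drawn). The circles lie above 0 for 26 of 36 genes, and the diamonds lie below 0 for 31.

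Probe sets of the same gene mostly shared the low value in nDKO 1, while the genotype difference was less uniform. nDKO 1 was the lowest array for 49 of the 59 probe sets, which include the brightest probe sets of the 33 genes counted above. Of the rest, 4 were lowest in nTKO 1, 4 in nTKO 2 and 2 in nDKO 2. The share of all probe sets that were lowest in nDKO 1 is not given. Dhx58 ranged from -0.72 to 0.20 over its 3 probe sets. The lowest came from a dimmer probe set with 5.41 and 6.65 in nTKO cells, against 5.82, 7.26 and 7.16 in nDKO cells. Stat2 was -0.057 by its brighter probe set and 0.40 by the other, which had 8.51 and 8.69 in nTKO cells, against 7.56, 8.48 and 8.57 in nDKO cells. Irf8 was 0.64 and 0.21. The second probe set of Ifngr2, with 6.87 and 6.73 in nTKO cells, against 6.37, 6.67 and 6.67 in nDKO cells, was the 1 of 59 whose groups did not overlap, beside 12.7% of all probe sets.

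**Figure D4:**
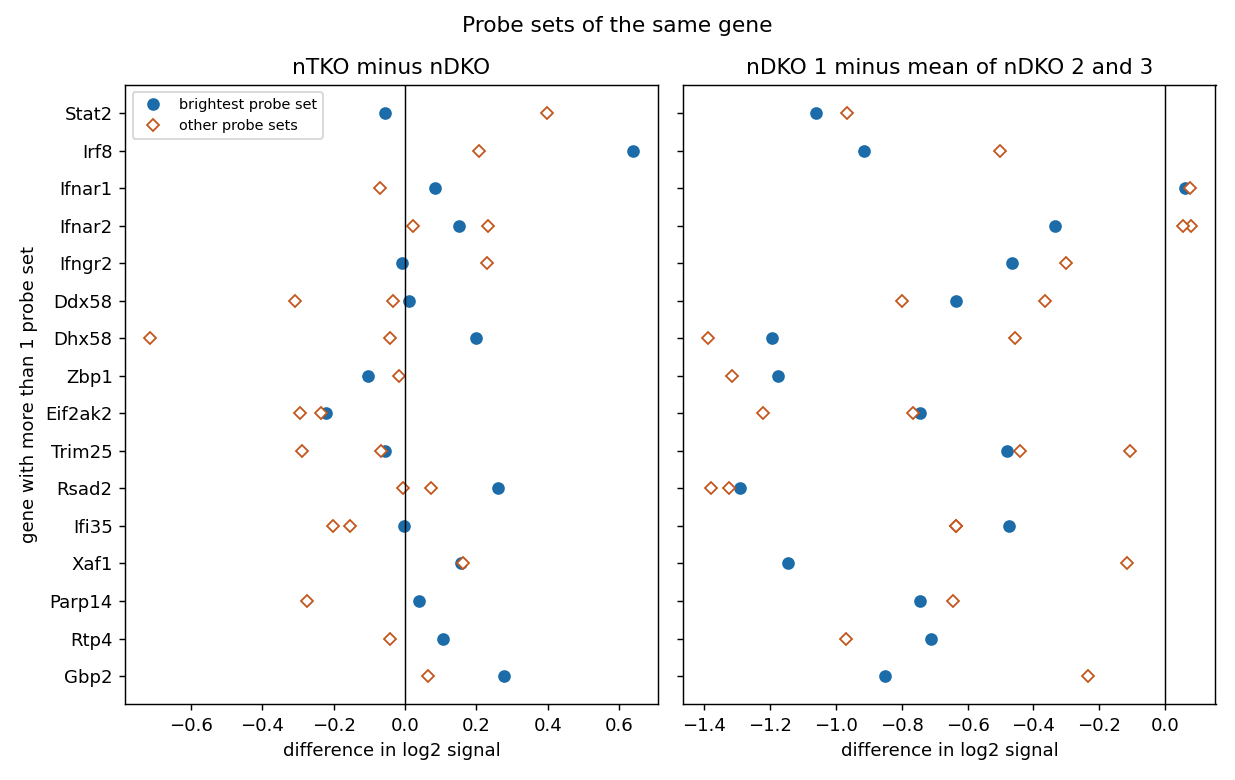
Difference in log2 signal by probe set for the 16 interferon response genes with more than 1 probe set, nTKO minus nDKO on the left and nDKO 1 minus the mean of nDKO 2 and 3 on the right. Filled circles are the brightest probe set of a gene, used in the gene-level fit, and open diamonds are the others. Dhx58 has the widest spread on the left, from -0.72 to 0.20.

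The promoter letters and the level in nDKO 1 can be set side by side. The 14 measured genes with a GAAANNGAA match had a median difference of -0.965 between nDKO 1 and the younger nDKO mice, with a range of -1.64 to 0.095. The 14 measured genes whose promoters held none had a median of -0.53, with a range of -1.3 to 0.06. All 4 receptors are among the genes without a match, and the other 10 had a median of -0.94, so the medians were close once receptors were left out. The ranges overlap. Ifitm3, which was flat, held the letters, and Ifit2, Irf7 and Oasl1, which were among the lowest, did not hold them in this window.

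Other genes of the pathway, 47 measured of 55 listed, were read out of the same fit. In nTKO cells 32 had a higher mean and 15 a lower one, beside 61% higher among all genes. In the fit 0 passed the adjusted threshold and 0 had an unadjusted p under 0.05, beside 0% and 3.79% of all genes. The groups did not overlap for 2, beside 12.8% of all genes. Irf3, the factor that starts interferon production, measured 9.64 and 9.67 in nTKO cells, against 9.73, 9.83 and 9.77 in nDKO cells, a difference of -0.12 (SE 0.058, limma adjusted p = 0.853). Oas3, a further oligoadenylate synthase, measured 8.82 and 8.64 in nTKO cells, against 7.85, 8.61 and 8.60 in nDKO cells, a difference of 0.38 (SE 0.28, limma adjusted p = 0.853). In nDKO 1, 17 of the 47 were at least 1.5-fold lower than in the younger nDKO mice, beside 3.67% of all genes. For 31 of the 47, nDKO 1 was the lowest array, beside 30.6% of all genes. The GTPase Iigp1 showed this most, with 7.73 and 7.67 in nTKO cells, against 6.15, 7.84 and 8.24 in nDKO cells. Of the ligand genes, Ifna2 measured 5.77 and 5.52 in nTKO cells, against 6.28, 5.78 and 5.77 in nDKO cells, above the array medians and highest in nDKO 1. Ifna4 measured 4.55 in both nTKO mice, against 4.21, 4.55 and 4.55 in nDKO cells. Ifnb1 measured 4.69 and 4.45 in nTKO cells, against 4.45, 4.26 and 4.45 in nDKO cells, and Ifng 2.90 and 2.73 in nTKO cells, against 2.74 in each nDKO mouse, and these 3 were below the array medians on every array.

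The cell type of the samples was checked with marker lists. The 7 epithelial markers had medians of 12.77 and 13.04 in nTKO cells, against 12.59, 12.91 and 12.85 in nDKO cells, with a median difference of -0.375 between nDKO 1 and the younger nDKO mice. The list median was lowest in nDKO 1, as were 3 of the 7 markers, beside 30.6% of all genes. The other 4 were lowest in nTKO 1, beside 14.0% of all genes. The 6 neutrophil markers had medians of 7.30 and 6.02 in nTKO cells, against 6.55, 6.30 and 6.74 in nDKO cells, and the macrophage medians given above were not lowest in nDKO 1. The 4 dendritic cell markers had medians of 6.18 and 5.96 in nTKO cells, against 5.85, 6.01 and 6.03 in nDKO cells, and 1 of them, Xcr1, was below the array medians on every array. The 8 markers of T and NK cells had medians of 4.98 and 4.82 in nTKO cells, against 4.57, 4.73 and 4.83 in nDKO cells. Of the 8, 7 were lowest in nDKO 1, beside 30.6% of all genes, and 4 were below the array medians on every array. List medians of B cells, plasmacytoid dendritic cells, fibroblasts and endothelium were between 3.30 and 4.25, below the array medians, on every array. Of their markers, 3 of 4, 3 of 5, 4 of 6 and 4 of 5, in that order, were below the array medians on every array. The fibroblast marker Dcn was not, with 6.41 and 9.52 in nTKO cells, against 7.87, 9.39 and 9.03 in nDKO cells. The part of any of these cells in the interferon values was not tested.

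**Figure D5:**
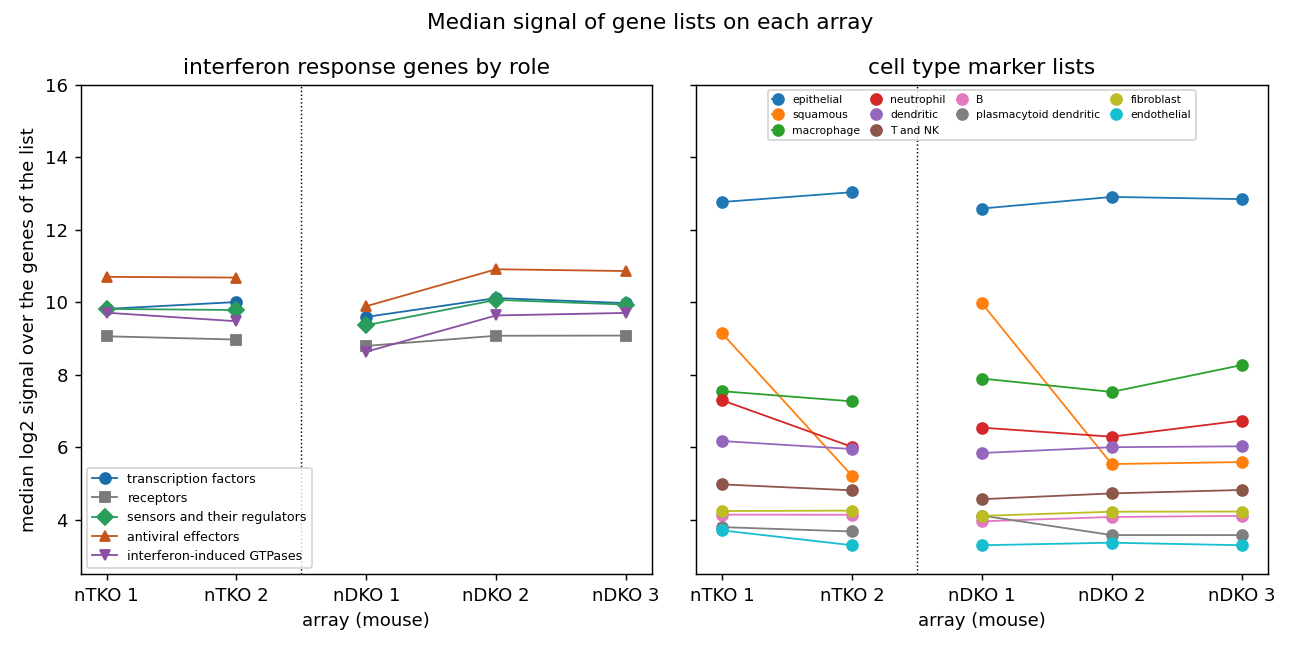
Median log2 signal on each array of the interferon response genes by role (left) and of cell type marker lists (right), with nTKO arrays left of the dotted line in each panel. The medians of the antiviral effectors were 10.71 and 10.69 in nTKO cells, against 9.90, 10.92 and 10.87 in nDKO cells, and the squamous list was high in nTKO 1 and nDKO 1.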

How the data were processed

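Values were deposited as log2 signals, 1 for each probe set on each array, rounded to 2 decimals, and were made by the authors with RMA and the Transcriptome Analysis Console, per the submitters' processing notes, which name no version of RMA. Because RMA gives the arrays 1 distribution, it removes a change common to most genes. The number of arrays limits the precision. Where a gene had several probe sets with its symbol alone, the brightest on average stood for it, and 9160 of 45037 probe sets had no symbol and 932 several.

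The comparison of nTKO with nDKO used limma 3.58.1 (R 4.3.3; lmFit, then eBayes with an intensity trend, unfiltered and with no covariate), two-sided, with Benjamini-Hochberg adjustment over all genes and a threshold of 0.05. It had 3 residual degrees of freedom and 1.23 from the prior, and was tested on simulated data. SE is that of the fit. With 10 splits of the mice, an exact permutation test of a gene cannot reach below 0.1. All measured genes of the list are named, by role, with their value on every array. Alternatives were quantile normalization, centring on medians, keeping genes above the median level (6.32), eBayes variants (no trend, robust), array weights, log2 age, a replicate block, every probe set as a feature, and fewer mice, also together with log2 age. The genes, lists, contrasts with nDKO 1 and promoter motifs were chosen with earlier results of these data known, and alternatives for those contrasts were added after seeing the data. For the response element, a core with 1 more letter was searched first, and the shorter core reported here replaced it after its matches and their split of the nDKO 1 difference had been seen. The longer core matched fewer genes, in the list and among all promoters, and is not reported. Some items are not reported here.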

Additional observations from a re-analysis of the deposited data

How the results depend on the processing

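The count of genes with an adjusted p under 0.05 was 0 among the 36 interferon response genes and 0 among all genes under every alternative run that has a test; over all genes, 689 had an unadjusted p under 0.05 in the main setting. The median log2 fold change, nTKO minus nDKO, was taken over the 36 genes, over sensors and regulators and over effectors. With log2 age as a covariate it was 0.66, 0.45 and 0.68. In the pair of like age, 1 array against 1, it was 0.785, 0.505 and 0.85. With the age covariate it was 0.81, 0.52 and 0.87 with nTKO 1 left out, and -0.12, -0.061 and -0.16 with nDKO 1 left out, both with 1 residual degree of freedom. With 1 mouse left out it ranged from -0.168 to 0.225, -0.183 to 0.128 and -0.165 to 0.32, the low ends without nDKO 1, and array weights gave -0.099, -0.125 and -0.073. The count of genes whose groups do not overlap, 0 in the main setting, was 2 after quantile normalization (18.9% of all genes), 1 after median centring (16.9%), 1 over all probe sets (12.7% of probe sets), 26 without both nDKO 1 and nTKO 1, where 56.3% of all genes did not overlap, and 0 to 19 with 1 mouse left out (19 without nDKO 1, beside 25.1%). It has no value under a covariate, a block or weights. Without an nTKO mouse, the lone nTKO array was assumed to vary like the others. The replicate block gave medians of 0.225, 0.095 and 0.32 and changed no call. Same-numbered arrays share only a number, and their deviations from the group means correlated at 0.424 and 0.338 across genes. The count of genes lowest in nDKO 1 was 30 to 34 of 36, and that of genes at least 1.5-fold lower there 25 to 27, under the scalings, the filter and leaving out other mice. The log2 fold change changed sign without nDKO 1 for 21 of 36 genes, and 8 had the same sign whichever mouse was left out.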
